A study of Mus musculus with 26 samples.

Results

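The control gliomas of a mouse Notch study are described here from 6 RNA sequencing libraries of GFP-positive tumour cells, out of 26 libraries in the series. They are the 6 libraries whose titles carry only p53 and a replicate number, and they are called control 1 to control 6 after that number. Their labels give the genotype as PDGF+, Trp53 ko, with Notch1, Notch2 and Rbpj wild type. The other 20 libraries come from gliomas with the same PDGF and Trp53 background that also lacked Notch1 (Notch1-/-, n = 6), Notch2 (Notch2-/-, n = 5), both (Notch1-/-Notch2-/-, n = 5) or Rbpj (Rbpj-/-, n = 4), the protein through which Notch receptors act on DNA. Loss of Trp53 and expression of PDGF are therefore shared by every library, the controls included, and nothing here can be set against normal brain. GFP came from a Rosa-CAG::GFP reporter that Cre recombinase had switched on, and GFP-positive cells of microdissected early gliomas were taken by flow cytometry. The labels do not say which PDGF was expressed, what drove Cre, or whether replicates were separate animals. The spread between these libraries, and any p-value that rests on it, may therefore be in part technical.

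Platelet-derived growth factor (PDGF) binds receptor tyrosine kinases, and its alpha receptor, encoded by Pdgfra, drives the division of oligodendrocyte precursor cells in the normal brain. Those precursors carry the transcription factors Olig2 and Sox10, pass through a committed stage and mature into the oligodendrocytes that wrap axons in myelin. Gliomas made in rodents by excess PDGF are known to keep many features of these precursors.

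The 6 control libraries held 37613009 to 46703709 counts each, and 12725 of 24454 listed genes had a level of at least 1 CPM in all 6. Levels are given in CPM, counts scaled to a common library total, and levels of different genes are compared only as CPM per kilobase of the length that the deposited table lists. The 15 pairs of control libraries differed by more than 2-fold in 224 genes (controls 2 and 5) to 1816 genes (controls 3 and 4) of the 9926 autosomal genes that averaged at least 10 CPM, and no pair came near sampling noise. Trp53 was counted at 9.02 to 15.5 CPM, so that counts over the whole gene did not show its loss, and the labels do not give the deleted part. Notch1 lay at 72.6 to 148 CPM, Notch2 at 9.61 to 16.5 CPM and Rbpj at 53.6 to 69.1 CPM. Xist, which is transcribed from an inactive X chromosome, was at 1624 CPM in control 1, 418 CPM in control 6 and at most 0.538 CPM in the other 4, and Ddx3y, a Y-linked gene, was at 0 counts in control 1, 64.8 CPM in control 6 and 33.3 to 122 CPM in the others. Control 6 thus held both Xist and a Y-linked transcript, and whether it mixed cells of both sexes was not tested. Control 1 differed in both genes from controls 2 to 5 and so cannot share 1 animal with them. These transcripts do not tell controls 2 to 5 apart. Spread between libraries was ranked over autosomal genes only.

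All 3 markers of the oligodendrocyte precursor lineage were abundant in every control library. Pdgfra, the PDGF receptor gene at chr5:75151322-75198206 (GRCm38.p6), ranged over 3088, 4568 and 5805 CPM as lowest, median and highest library. Controls 1 and 4 were the highest and control 3 the lowest. Per length, Pdgfra averaged 674 ± 164 CPM per kilobase (SD, n = 6) and was the 20th highest of 20585 protein-coding genes. Olig2, a basic helix-loop-helix factor that specifies the lineage (chr16:91225550-91228677), lay at 484, 542 and 548 CPM, the steadiest of the markers. Its per-length level was 218 ± 10.1 CPM per kilobase, rank 199. Sox10, the factor that sustains the lineage and drives myelin genes (chr15:79154913-79164490), lay at 298, 391 and 453 CPM, lowest in control 1, with a per-length level of 144 ± 19.8 CPM per kilobase and rank 412. Olig1, the neighbour and relative of Olig2 (chr16:91269769-91271939), stood at 632 ± 44.7 CPM per kilobase, rank 25. Its per-length level was 2.61 to 3.02 times that of Olig2 in each of the 6 libraries, a narrow range.

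**Figure D1:**
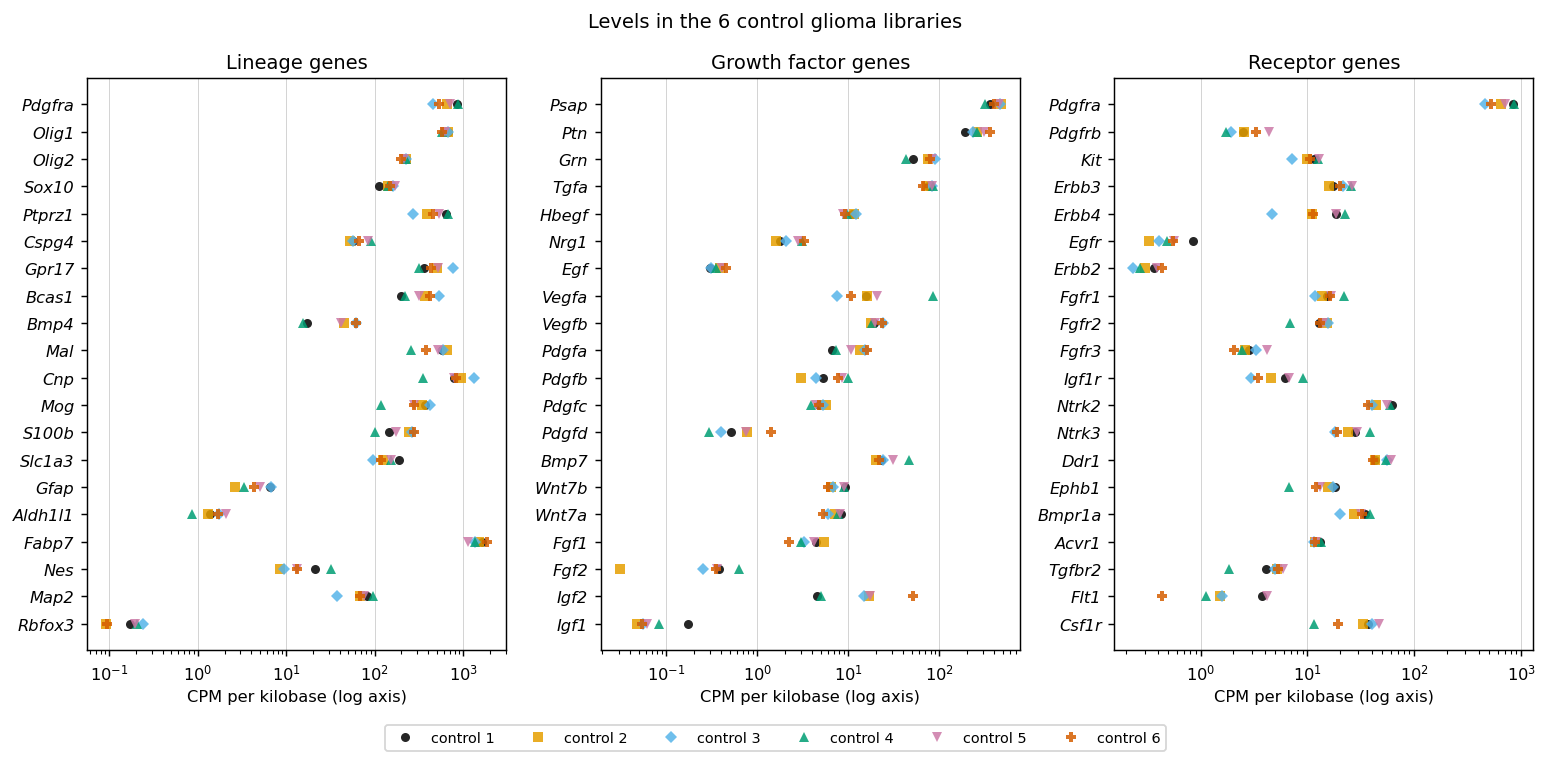
Levels of 20 lineage, 20 growth factor and 20 receptor genes in CPM per kilobase (log axis), with 1 point for each of the 6 control glioma libraries. Olig1 and Olig2 sit in tight clusters, Pdgfra lies 160.8 to 493 times above Pdgfrb, and Vegfa is set apart in control 4 and Igf2 in control 6.

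The 20 listed precursor genes were at 1 CPM or more in all 6 libraries without exception. The highest after Pdgfra and Olig1 were Ptprz1, a receptor phosphatase of glial progenitors, at 491 ± 151 CPM per kilobase, Cspg5, a chondroitin sulphate proteoglycan, at 377 ± 49.4 CPM per kilobase, and Lhfpl3 at 317 ± 69.1 CPM per kilobase. Sox8, a close relative of Sox10, averaged 117 ± 24.1 CPM per kilobase. Per length Sox10 exceeded Sox8 in all 6 libraries, but only by 1.00 to 1.58 times. Cspg4, the gene of the precursor surface antigen NG2, stood at 67.3 ± 16.0 CPM per kilobase and Nkx2-2, a factor of the precursor to oligodendrocyte transition, at 24.7 ± 7.58 CPM per kilobase. The summed level of the 20 genes ran from 13864 CPM in control 3 to 21704 CPM in control 4, a 1.57-fold range.

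Genes of the committed stage and of myelin were also abundant, and they separated the libraries more than the precursor genes did. Gpr17, a receptor that marks newly committed oligodendrocytes, ranged over 1622, 2436 and 3981 CPM, lowest in control 4 and highest in control 3. Bcas1, which marks early myelinating cells, lay at 602 CPM in control 1, 678 CPM in control 4 and up to 1629 CPM in control 3. Cnp, an enzyme of myelin sheaths, stood at 836 ± 312 CPM per kilobase, the tight junction gene Cldn11 at 588 ± 217, the raft protein gene Mal at 495 ± 151 and Mog, a glycoprotein of the outermost sheath, at 299.5 ± 104 CPM per kilobase. Control 4 was the lowest library for each of these 4 myelin genes, with 201 CPM of Mog against 474 to 717 CPM in the other controls. The 17 mature oligodendrocyte genes summed to 10686 CPM in control 4 and 19510 to 28563 CPM in the others. In bulk libraries such as these, fewer cells of a type and less RNA per cell cannot be told apart.

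Astrocyte genes differed widely in level. S100b, a calcium-binding protein, averaged 200.3 ± 72.1 CPM per kilobase, the glutamine synthetase gene Glul 144 ± 30.8 and the glutamate transporter gene Slc1a3 139 ± 33.7 CPM per kilobase. Gfap, an intermediate filament gene of astrocytes, stood at 4.74 ± 1.64 CPM per kilobase, the water channel gene Aqp4 at 4.25 ± 2.32, the astrocyte-determining factor Sox9 at 4.50 ± 1.86 and Aldh1l1, an enzyme of folate metabolism, at 1.51 ± 0.432 CPM per kilobase. Sox10 exceeded Sox9 per length by 18.4 to 70.8 times in the 6 libraries. Of progenitor genes, the fatty acid binding protein gene Fabp7 was the sixth highest gene of all per length, at 1474 ± 259 CPM per kilobase. The stem cell factor Sox2 was steady at 62.2 ± 5.55 CPM per kilobase, while Nes, an intermediate filament gene of neural stem cells, averaged 16.1 ± 8.81 and Hes5, a direct target of Notch, 3.24 ± 1.61 CPM per kilobase. The Notch ligand gene Dll3 (18.1 ± 1.48 CPM per kilobase) varied little. Of neuronal genes, Map2, which precursor cells are also known to transcribe, stood at 71.0 ± 19.7 CPM per kilobase and Rbfox3, which marks mature neurons, at 0.166 ± 0.0601 CPM per kilobase.

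Transcripts of cells that are not of this lineage were present in the sorted samples. The 17 microglia and macrophage genes, each at 1 CPM or more in all 6 libraries, summed to 444 CPM in control 4 and 1151 to 1645 CPM in the other controls. Ctss, a lysosomal protease of microglia, ranged over 74.0, 342 and 469 CPM, and Csf1r, the receptor on which microglia depend, over 45, 135 and 181 CPM, both lowest in control 4. The 13 endothelial genes summed to values from 52.1 CPM in control 4 to 220 CPM in control 5, and the 12 mural and fibroblast genes to values from 213 CPM in control 1 to 1026 CPM in control 6. Genes of T and NK cells summed to 0.121 to 3.64 CPM and genes of B cells to 0.109 to 1.27 CPM. Haemoglobin and other erythroid genes summed to 62.5 to 116 CPM.

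Among growth factor genes, the highest per length were Psap, which encodes the lysosomal precursor prosaposin, at 411 ± 64.7 CPM per kilobase and the heparin-binding factor Ptn, a ligand of the Ptprz1 receptor, at 269 ± 60.1 CPM per kilobase. Tgfa, a ligand of the EGF receptor, stood at 77.9 ± 7.82 CPM per kilobase and in each library 6.42 to 9.51 times above Hbegf, another ligand of that receptor. Bmp7, of the bone morphogenetic protein family, averaged 27.7 ± 9.96 CPM per kilobase. Wnt7a and Wnt7b, which precursor cells use to act on blood vessels, averaged 7.06 ± 1.20 and 7.71 ± 1.46 CPM per kilobase.

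Of the PDGF genes in the table, Pdgfa, whose product binds the alpha receptor, averaged 11.6 ± 4.00 CPM per kilobase, Pdgfb, whose product binds both receptors, 6.49 ± 2.65, Pdgfc 4.77 ± 0.630 and Pdgfd 0.692 ± 0.404 CPM per kilobase. Per length Pdgfa exceeded Pdgfb in 5 of 6 libraries, with control 4 the exception at 0.745 times. A PDGF transgene is counted under these genes only as far as its reads were aligned to them, which the sources used do not say. Vegfa, the vascular growth factor, ranged over 31.0, 66.0 and 352 CPM. Control 4 held the 352 CPM and every other library at most 86.3 CPM, and Vegfb did not share this order, with 22.5 to 31.1 CPM in all 6.

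The FGF genes were nearly silent. Of 18 listed, 16 were under 1 CPM in all 6 libraries and 5 of those had no count at all. Fgf1, the acidic FGF, was the only one at 1 CPM or more in all 6, at 8.62, 14.6 and 21.0 CPM and a per-length level of 3.76 ± 1.15 CPM per kilobase. Fgf2, which is used to grow precursor cells in culture, stood at 0.335 ± 0.192 CPM per kilobase. Igf2, the insulin-like growth factor of fetal tissue and fibroblasts, ranged over 20.6, 72.4 and 233 CPM with the highest value in control 6, the library with the most mural and fibroblast transcripts. Igf1 stayed at 0.387 to 1.40 CPM.

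Pdgfra was far above every other receptor tyrosine kinase gene listed, and the beta receptor gene Pdgfrb averaged only 2.73 ± 0.985 CPM per kilobase. Per length the level of Pdgfra was 160.8 to 493 times that of Pdgfrb. Ntrk2, the receptor of brain-derived neurotrophic factor, followed with 49.5 ± 10.3 CPM per kilobase and Ddr1, a collagen receptor, with 49.1 ± 8.09 CPM per kilobase. Their order changed between libraries, with Ntrk2 the higher in 3 of 6. Csf1r, a microglial receptor, stood at 31.3 ± 13.3 CPM per kilobase. Bmpr1a, a receptor of bone morphogenetic proteins, averaged 30.7 ± 6.44 CPM per kilobase and Acvr1, another receptor of that family, 12.3 ± 0.777 CPM per kilobase.

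The EGF receptor family was represented by Erbb3 and Erbb4. Erbb3, which binds neuregulins but has little kinase activity of its own, averaged 21.1 ± 4.20 CPM per kilobase and Erbb4 14.4 ± 6.54 CPM per kilobase. Egfr stood at 0.532 ± 0.179 and Erbb2 at 0.335 ± 0.0771 CPM per kilobase, and per length Erbb3 exceeded Egfr by 20.4 to 53.2 times. Erbb4 ranged over 55.6, 181 and 268 CPM, lowest in control 3 and highest in control 4. Of the FGF receptors, Fgfr1 averaged 16.0 ± 3.41, Fgfr2 12.9 ± 3.16 and Fgfr3 2.91 ± 0.757 CPM per kilobase. Fgfr2 was at 36.9 CPM in control 4 and 68.4 to 83.8 CPM in the other controls, and the per-length ratio of Fgfr1 to Fgfr2 was 3.17 in control 4 and 0.754 to 1.24 elsewhere. Igf1r averaged 5.5 ± 2.32 CPM per kilobase and the stem cell factor receptor gene Kit 10.8 ± 2.07 CPM per kilobase.

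The basic helix-loop-helix and Sox lists had the narrowest ranges of summed level among all lists. The 28 listed basic helix-loop-helix and Id genes summed to 2862 to 3192 CPM and the 19 Sox genes to 1512 to 1699 CPM, a 1.12-fold range for each. The narrow range is that of the sums. Among autosomal members averaging at least 10 CPM, the median SD of log2 CPM was 0.253 and 0.344, beside 0.273 over all such genes. In controls 3 and 4 Sox8 lay at 469 and 266 CPM, and Sox6, in the opposite order, at 270 and 513 CPM. Their listed lengths are 2999 and 9362 bases, and levels in these libraries followed listed length, as described below. Id2, an inhibitor of basic helix-loop-helix factors, averaged 115 ± 21.4 CPM per kilobase, and Tcf12 and Tcf4, which encode partners of those factors, 58.4 ± 9.69 and 53.5 ± 17.0 CPM per kilobase. Tcf4 lay at 163 CPM in control 3 and 403 to 541 CPM in the other libraries. The repressor gene Zeb1 averaged 59.5 ± 16.6 CPM per kilobase. The Ets factors Etv4 (58.0 ± 10.8), Etv5 (34.7 ± 6.01) and Etv1 (28.2 ± 6.11 CPM per kilobase), which are known targets of receptor tyrosine kinase signalling, were all present, with Etv4 above Etv5 per length in all 6 libraries. Myc stood at 13.0 ± 3.08 CPM per kilobase and Myt1, a zinc finger factor of precursor cells, at 33.6 ± 9.61 CPM per kilobase.

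Most listed factors that mark position along the neural tube were low. Of 26 forebrain and midbrain factors 16 were under 1 CPM in every library, 2 of them with no count in any, 7 had at least 1 CPM in all 6, and 3 averaged at least 10 CPM. Gsx1, a factor of the ventral telencephalon, averaged 20.0 ± 1.96 CPM per kilobase, and Lhx2, a factor of the dorsal forebrain, 5.12 ± 0.916 CPM per kilobase, and both were among those 3. All 39 listed Hox genes, which mark hindbrain and spinal cord, were under 1 CPM in every library, and 33 of them had no count in any. A count of 0 in all 6 libraries shows only that a transcript was not detectable at this depth.

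**Figure D2:**
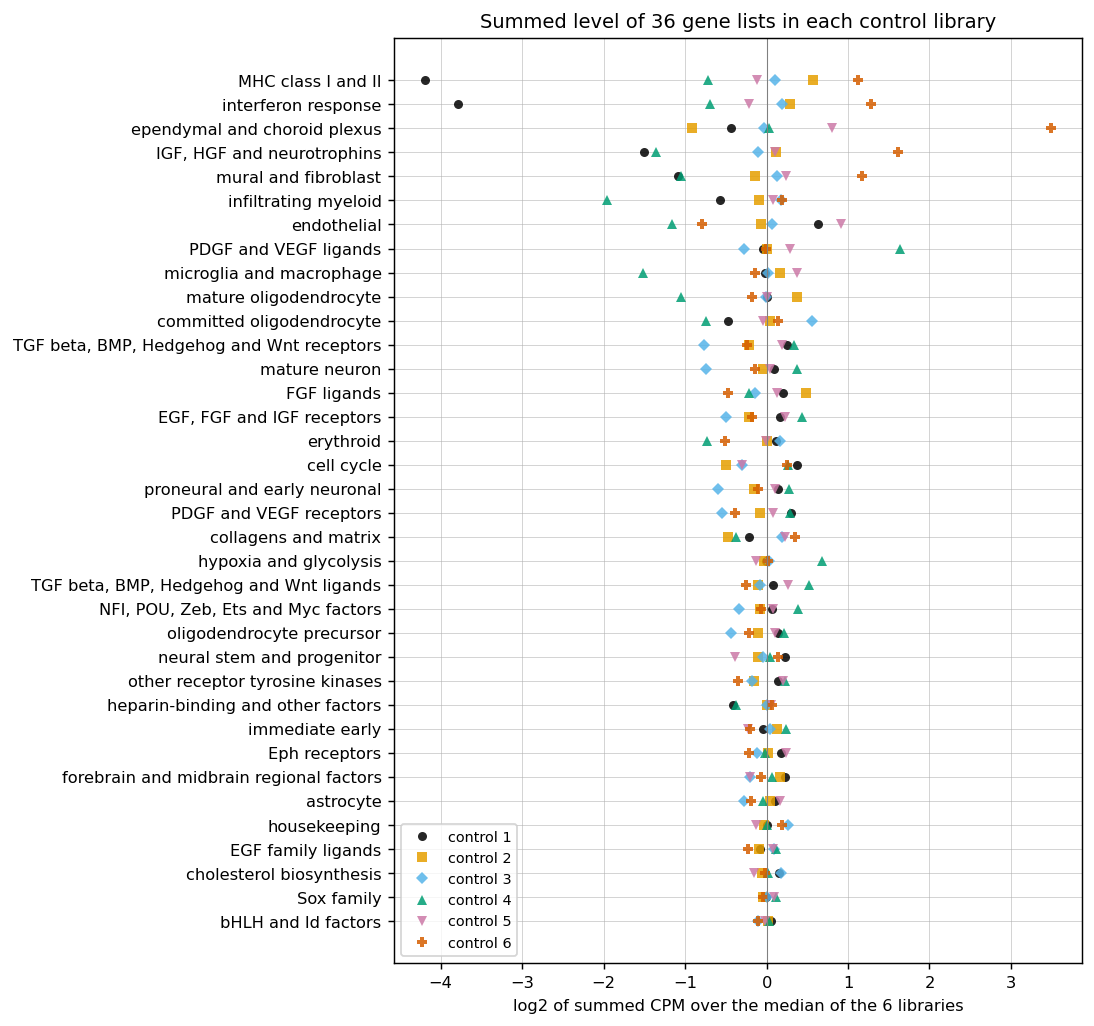
Log2 of the summed CPM of each of 36 gene lists over the median of the 6 control libraries, with 1 point for each library and the lists ordered by range. The Sox and basic helix-loop-helix lists at the bottom sit close to 0, and the interferon response and MHC lists at the top have control 1 far below the other 5.

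A few listed levels cannot be taken at face value. Gapdh averaged 0.390 ± 0.122 and Ppia 1.58 ± 0.396 CPM per kilobase, while Actb stood at 887 ± 118 CPM per kilobase. Both Gapdh and Ppia have many near-identical copies, among which counting can lose or split reads. Likewise H2-Q6 and H2-Q8 had equal counts in 6 of 6 libraries, and Hba-a1 and Hba-a2 differed by at most 2 counts, so each such pair is uncertain. The highest gene per length was B2m, the light chain of MHC class I, at 4261 ± 3222 CPM per kilobase, and its SD was far larger than that of Eef1a1, a translation factor, at 2813 ± 468 CPM per kilobase.

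Spread between the control libraries was measured as the SD of log2 CPM over the 6 libraries in the 9926 autosomal genes that averaged at least 10 CPM. The median SD was 0.273, the 5th to 95th percentiles were 0.115 to 0.760, and the median that counting error alone would give was 0.0316. An SD of at least 1 was found in 224 genes, 2.26% of those ranked, and an SD under 0.1 in 276. Since genes were ordered by their own spread, the lists that follow are descriptions with no test.

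**Figure D3:**
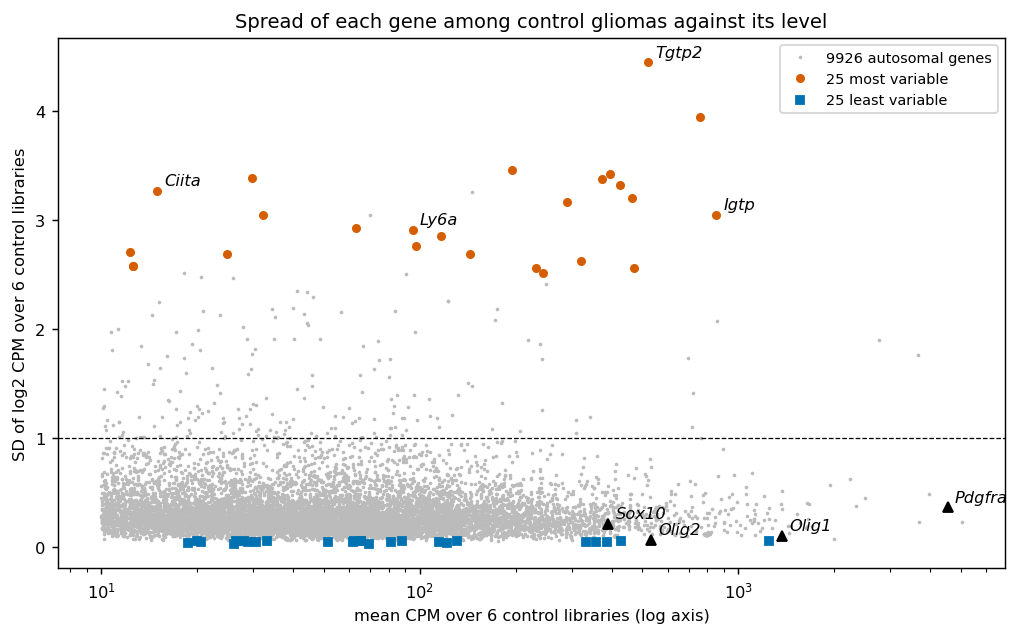
SD of log2 CPM among the 6 control libraries against mean CPM on a log axis, 1 point for each of 9926 autosomal genes, with the 25 most and 25 least variable in colour, the lineage markers as triangles and a dashed line at an SD of 1. The median SD is 0.273, Tgtp2 is at the top with 4.45, and Pacsin2 is at the bottom with 0.03.

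Most of the 25 most variable genes are known as genes that interferon gamma induces or as genes of antigen presentation. Tgtp2 and Tgtp1, a pair of GTPases that attack vacuoles of intracellular microbes, led with SDs of 4.45 and 3.95. Ciita, the switch of MHC class II genes, the class II genes H2-Aa and Cd74, the guanylate-binding protein gene Gbp2, the chemokine gene Cxcl9, the immunoproteasome gene Psmb9 and Nlrc5, an activator of MHC class I genes, were all among the 25 highest. Tgtp2 was at 0.265 CPM in control 1 and 262, 430, 490, 537 and 1399 CPM in the others. Gbp2 was at 1.5 CPM in control 1 and 87.8 to 1054 CPM elsewhere, Cd74 at 2.27 CPM against 51.6 to 949 CPM, and B2m at 246 CPM against 2028 to 8229 CPM. Control 1 was the lowest library in 24 of the 25, and control 6 was the highest library for Tgtp2, Gbp2, Cd74 and B2m. Ly6a, a surface antigen of interferon-exposed cells, broke the pattern with 2.94 CPM in control 1, 2.46 CPM in control 4 and 96.6 to 273 CPM in the others.

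Promoters of a few of these genes are shown because 107 of the 224 genes with an SD of at least 1, Tgtp1, Igtp and Gbp2 among them, were more than 2-fold lower in control 1 than in any other control library. Over all ranked genes the count was 125. Igtp, another GTPase of the same class, was at 5.84 CPM in control 1 and 460 to 1884 CPM in the others. The sequences are RefSeq promoter windows on GRCm38.p6, from 250 bases before to 50 bases after the start, printed 5′ to 3′ in the direction of the gene. They lie at chr11:58199306-58199605 on the plus strand (Igtp), chr11:48992197-48992496 on the minus strand (Tgtp1), chr3:142620413-142620712 on the plus strand (Gbp2) and chr2:122147437-122147736 on the plus strand (B2m). Capitals mark matches on either strand to GAAANNGAAA, the pattern that interferon regulatory factors recognise, and to TTCNNNGAA, the pattern of STAT factors.
Igtp: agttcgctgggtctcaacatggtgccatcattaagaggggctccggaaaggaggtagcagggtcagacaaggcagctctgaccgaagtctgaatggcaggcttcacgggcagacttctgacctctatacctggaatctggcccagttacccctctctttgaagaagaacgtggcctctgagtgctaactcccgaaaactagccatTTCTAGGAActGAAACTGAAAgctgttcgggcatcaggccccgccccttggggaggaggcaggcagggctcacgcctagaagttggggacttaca
Tgtp1: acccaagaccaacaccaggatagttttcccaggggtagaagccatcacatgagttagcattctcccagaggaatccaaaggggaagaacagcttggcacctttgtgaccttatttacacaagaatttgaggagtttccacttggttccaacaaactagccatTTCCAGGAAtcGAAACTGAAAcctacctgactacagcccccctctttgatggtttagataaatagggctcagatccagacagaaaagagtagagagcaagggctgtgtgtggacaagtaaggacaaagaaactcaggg
Gbp2: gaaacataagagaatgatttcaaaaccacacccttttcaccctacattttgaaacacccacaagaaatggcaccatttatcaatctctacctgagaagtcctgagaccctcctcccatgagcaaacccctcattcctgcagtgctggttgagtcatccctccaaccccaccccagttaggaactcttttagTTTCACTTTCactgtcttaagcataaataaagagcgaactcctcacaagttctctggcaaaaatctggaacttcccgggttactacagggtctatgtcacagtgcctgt
B2m: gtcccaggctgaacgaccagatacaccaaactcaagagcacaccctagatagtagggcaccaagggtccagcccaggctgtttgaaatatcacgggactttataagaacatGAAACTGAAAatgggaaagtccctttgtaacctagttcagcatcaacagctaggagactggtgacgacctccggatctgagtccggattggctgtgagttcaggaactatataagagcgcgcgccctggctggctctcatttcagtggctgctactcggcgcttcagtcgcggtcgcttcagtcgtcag

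Igtp and Tgtp1 each held both patterns with their first bases 11 bases apart, GAAACTGAAA beginning 34 bases before the start in Igtp and 77 in Tgtp1. Gbp2 held TTTCACTTTC, a match on the opposite strand, 59 bases before its start, and B2m held GAAACTGAAA 139 bases before its start. GAAANNGAAA occurred in 30 of the 72 genes low in control 1 that had a promoter entry (41.7%), against 3.77% of the 7937 ranked genes with an entry and 3.99% of all 27025 entries. TTCNNNGAA occurred in 20 of the 72 (27.8%), against 8.23% of ranked genes and 9.55% of all entries, and matches to the 2 patterns overlapped in 3 of the 72 genes. The unrelated TATA box pattern TATAAA, also searched on both strands, was as frequent in the same promoters, at 20 of the 72 (27.8%), against 8.19% of ranked genes and 15.7% of all entries. These shares describe the letters in a window of 300 bases, not binding.

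By list, 24 of the 27 ranked interferon response genes and 9 of 9 ranked MHC genes had an SD of at least 1, beside 2.26% of all ranked genes. Without control 1 the counts were 3 of 27 and 3 of 9, and the median SD was 0.763 in place of 1.75 for the interferon response list and 0.895 in place of 2.07 for the MHC list. The interferon response list summed to 613 CPM in control 1 and 5221 to 20436 CPM in the other 5, and the MHC list to 446 CPM against 4956 to 17632 CPM. Ifit2, a target of type I interferon, stayed within 65.2 to 136 CPM with an SD of 0.36, while other known targets of type I interferon varied, among them Ifit1 with an SD of 1.48, Ifit3 with 1.90, Isg15 with 2.04 and Oasl2 with 2.19. Genes of T and NK cells, the known producers of interferon gamma, were also lowest in control 1, at a sum of 0.121 CPM against 0.570 to 3.64 CPM in the others, and the part of these cells in the result was not tested. Control 1 was also the only control with Xist and no Ddx3y count. With 1 such library, the part of sex or animal in the difference cannot be told apart.

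**Figure D4:**
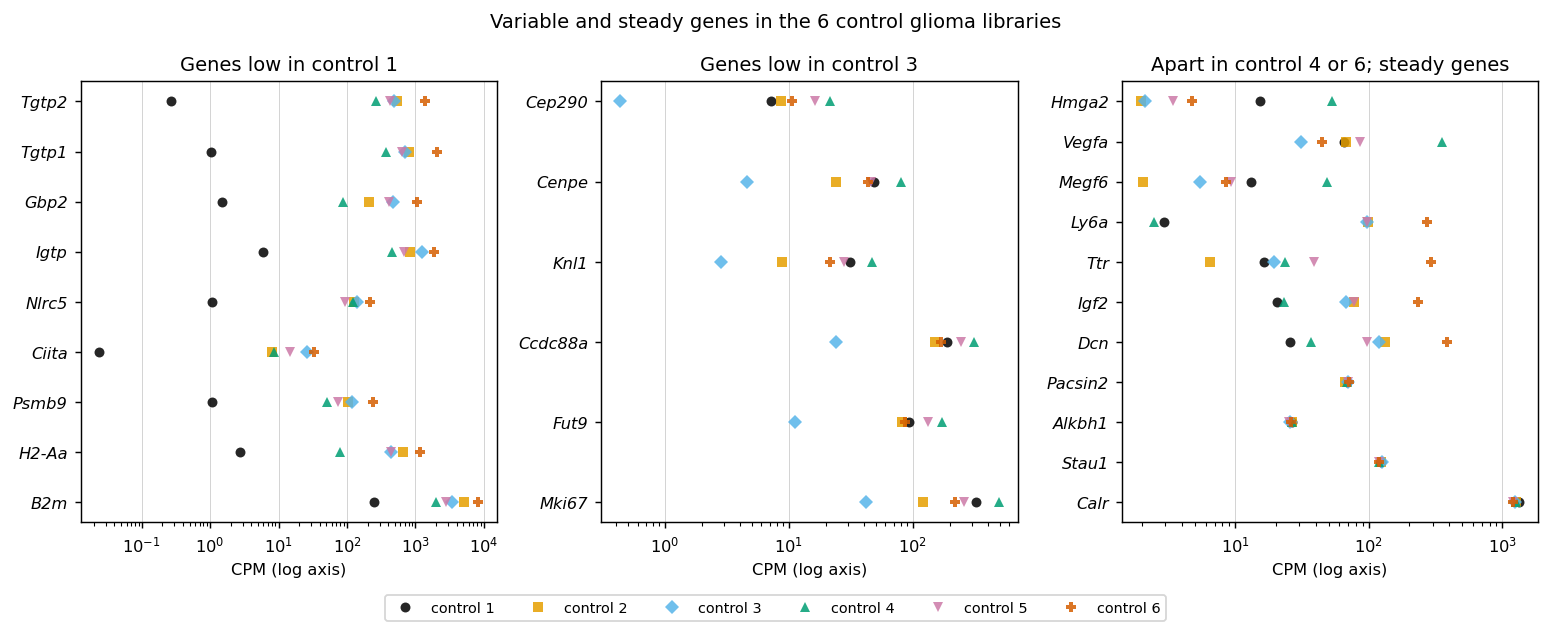
CPM (log axis) of genes low in control 1, genes low in control 3, and genes apart in control 4 or 6 beside steady genes, with 1 point for each of the 6 control libraries. Tgtp2 spans 0.265 to 1399 CPM with control 1 far below the rest, while Pacsin2 stays at 66.8 to 70.4 CPM.

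The spread did not rest on control 1 alone. Without control 1, 175 genes had an SD of at least 1, and 128 of them were among the 224. Only 5 of the 25 most variable genes were shared between the ranking with and the ranking without control 1, and Ly6a, Cep290, Ttr, Hmga2 and Megf6 then led. Control 3 was the lowest library in 58 of the 224 genes, and 52 of the 224 were more than 2-fold lower there than in any other control. Over all ranked genes 388 were. The 52 included Cep290, a gene of the ciliary base, at 0.434 CPM in control 3 and 7.19 to 21.5 CPM elsewhere, Ccdc88a, an actin-binding protein gene, at 23.8 CPM against 150.1 to 311 CPM, and the mitotic genes Cenpe (4.59 CPM against 24.1 to 79.9 CPM) and Mki67 (41.6 CPM against 121 to 492 CPM).

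The 52 genes low in control 3 had long transcripts. Their median listed length was 8073 bases, and 49 of the 52 (94.2%) exceeded 4000 bases, against 36.8% of all ranked genes. Of the 388 genes, 329 did. Library levels followed listed length across all ranked genes, not only these. In control 3 the median log2 difference from the mean of the other 5 controls was 0.46 for the 536 genes of up to 1000 bases and -0.78 for the 608 genes over 8000 bases, and in control 4 the order was the opposite, with -0.46 and 0.62. Controls 1 and 5 had medians of 0.32 and 0.35 for the longest genes, and controls 2 and 6 -0.22 and -0.17. Pdgfra, whose listed length is 6737 bases, was lowest in control 3 and highest in control 4, the same order as its length class, and so were Erbb4 and Ptprz1. Sox6 and Tcf4, of 9362 and 7681 bases, had that order too. Ratios between genes of unlike length may carry the same trend, such as Pdgfa to Pdgfb (1018 and 2942 bases) and Ntrk2 to Ddr1 (14037 and 4006 bases). Among genes of up to 4000 bases alone, 124 had an SD of at least 1. The part of transcript length in the differences between control libraries was not tested.

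**Figure D5:**
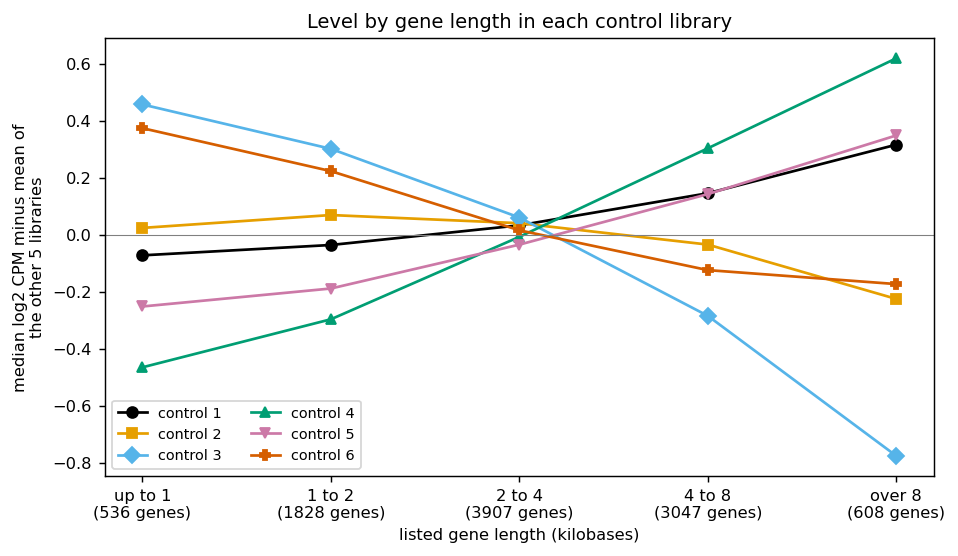
Median log2 difference in CPM of each control library from the mean of the other 5, for autosomal genes in 5 classes of listed length. The line of control 3 falls with length to -0.78 and that of control 4 rises to 0.62, while the others stay between.

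Control 4 stood apart by low microglial and myelin transcripts and by a few high genes. Of the 224 variable genes it was highest in 65. Hmga2, a chromatin protein gene of fetal and tumour cells, was at 52.8 CPM in control 4 and 1.96 to 15.2 CPM in the others, Megf6 at 48.7 CPM against 2.04 to 13.0 CPM and Vegfa at 352 CPM against 31.0 to 86.3 CPM. The 17 hypoxia and glycolysis genes in the table summed to 2381 CPM in control 4 and 1367 to 1522 CPM in the others. The 14 of the 224 genes more than 2-fold lower there than in any other control included the chemokine gene Ccl4 (3.51 CPM against 14.9 to 41.3 CPM) and Ctss. These genes too were divided by listed length: 1 of the 14 low genes exceeded 4000 bases (median 1446.5 bases), and 9 of the 10 genes more than 2-fold higher in control 4 than in any other did (median 5862 bases).

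Control 6, the library with both Xist and Ddx3y, was the highest in 124 of the 224 variable genes. Besides interferon-induced genes, these included Ttr, a carrier protein gene of the choroid plexus, at 294 CPM in control 6 and 6.45 to 39.1 CPM in the others, and Dcn, a proteoglycan gene of fibroblasts, at 383 CPM against 25.6 to 133 CPM. Tnc, a matrix gene, was lowest there at 2.68 CPM, against 5.57 to 41.6 CPM.

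The least variable gene was Pacsin2, which acts in membrane bending, at 66.8, 69.3 and 70.4 CPM with an SD of 0.0272, close to the 0.0266 that counting error alone would give. Alkbh1, a nucleic acid demethylase gene, ranged over 25.4 to 26.7 CPM, Stau1, of an RNA transport protein, over 118 to 126 CPM, and Irf3, a factor of the type I interferon pathway, over 27.3 to 29.6 CPM. Calr, a chaperone of the endoplasmic reticulum, was among the 25 least variable genes at 1198 to 1335 CPM. That no library stood apart in these genes follows from how they were chosen.

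The mutant libraries, which had no part in these rankings, gave a separate measure of spread as the SD within genotypes. All 25 of the most variable genes in the controls had an SD of at least 1 within mutant genotypes, with a median of 3.31, against a median of 0.311 over all ranked genes, of which 3.15% reached 1. Of the 25 least variable, 24 were below that overall median, and their own median was 0.176. The 107 genes low in control 1 had a median SD of 2.10 within mutants, and all 107 reached 1. Of the 52 genes low in control 3, 3 reached 1, beside 3.15% of all ranked genes. Their median was 0.705, above the 0.311 of all ranked genes. The interferon response list summed to 613 to 20436 CPM in the controls and to 425 to 27993 CPM in the 20 mutant libraries, 2 ranges that overlapped.

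Control levels were then set against the mean of the 4 mutant genotypes in a fit of all 26 libraries with edgeR's quasi-likelihood test, each genotype weighted equally and p-values adjusted over 15617 genes by Benjamini-Hochberg. At an adjusted p under 0.05, 2627 genes (16.8%) were higher and 2429 (15.6%) lower in control, 32.4% in either direction. Changes are given as log2 of control over the mutant mean, with standard errors, and n is 6 control and 20 mutant libraries throughout. CPM here is scaled over all 26 libraries, so control values differ slightly from those scaled over the 6 controls alone. The median over all genes tested was -0.03.

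The precursor markers themselves were not called. Pdgfra had 3039 to 5831 CPM in control and 1676 to 7101 CPM in mutant libraries (log2 change 0.01 ± 0.21, adjusted p = 0.973), and Olig2 477 to 550.5 CPM against 371 to 727 CPM (-0.07 ± 0.09, adjusted p = 0.568). For Sox10 the change was -0.23 ± 0.17 (adjusted p = 0.315). Of the 20 precursor genes 2 were higher and 1 was lower. The lower one was Sox6, a factor that keeps precursors immature, with 266 to 515 CPM in control and 280.4 to 803 CPM in mutant libraries (-0.64 ± 0.15, adjusted p = 0.00317, below the mutant median in 6 of 6 control libraries). The 2 higher ones, Cspg5 and C1ql1, were no longer called without control 2, and likewise without control 3 or control 5.

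Mature oligodendrocyte genes were higher in control, with 15 of 17 called and a median log2 change of 1.96. Mog had 202 to 705 CPM in control and 13.2 to 593 CPM in mutant libraries, with a mutant median of 45 CPM (2.70 ± 0.42, adjusted p = 6.7e-05, above the mutant median in 6 of 6 control libraries). Mal changed by 2.74 ± 0.46 (adjusted p = 0.000157). The ranges overlapped for both, and their means were highest among the mutants in Notch2-/-, at 267 CPM for Mog and 869 CPM for Mal. Of 18 astrocyte genes 11 were higher and none was lower. Aqp4 had 14.3 to 49.6 CPM in control and 1.26 to 37.1 CPM in mutant libraries (2.07 ± 0.29, adjusted p = 2.57e-05), and Glul changed by 0.88 ± 0.12 (adjusted p = 2.11e-05). In Notch2-/- the means were 24.2 CPM for Aqp4 and 356 CPM for Glul, beside 25.5 and 402 CPM in control. The other mutant genotypes averaged 3.30 to 4.28 CPM of Aqp4 and 155 to 213 CPM of Glul. With the 20 mutant libraries taken as 1 group the astrocyte count was 7.

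Genes of other cell types were higher in control as well. Of 17 microglia and macrophage genes 15 were higher and none was lower, with a median log2 change of 2.54 and summed levels of 446 to 1655 CPM in control and 97.4 to 774 CPM in mutant libraries. Of 13 endothelial genes 12 were higher and none was lower, with sums of 52.4 to 222 CPM in control and 9.84 to 144 CPM in mutant libraries. Among the mutants, Notch2-/- had the highest means of Ctss and Csf1r, at 65.4 and 74.9 CPM, beside 306 and 120 CPM in control. For P2ry12, another microglial gene, Notch2-/- averaged 44.8 CPM, beside 44.4 CPM in control. Flt1, of endothelium, averaged 11.0 CPM in Notch2-/- and 13.1 CPM in control. The part of these cells in the other differences between control and mutant libraries was not tested.

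Growth factor, receptor and transcription factor genes moved in both directions. Fgfr2 had 37.1 to 82.5 CPM in control and 8.07 to 82.9 CPM in mutant libraries, with a mutant median of 14.2 CPM (1.68 ± 0.35, adjusted p = 0.00123). Fgf1 (1.20 ± 0.21, adjusted p = 0.000223), Ptn (0.69 ± 0.17, adjusted p = 0.0033) and Psap (0.55 ± 0.11, adjusted p = 0.00121) were also higher in control. Of the 10 PDGF and VEGF receptor genes 4 were higher, namely Csf1r of microglia and Flt1, Kdr and Flt4 of endothelium, and none was lower. Myc, the growth-promoting factor, had 22.7 to 43.9 CPM in control and 30.3 to 149 CPM in mutant libraries (-1.17 ± 0.18, adjusted p = 6.55e-05, below the mutant median in 6 of 6 control libraries). Its mean was 31.1 CPM in control, 33.35 CPM in Notch2-/- and 75.9 to 106 CPM in the other mutant genotypes. Tcf12 (-0.50 ± 0.12, adjusted p = 0.00385) was lower in control too. Among the mutants, Notch2-/- also had the mean nearest to control for Fgfr2, Fgf1, Ptn, Psap and Tcf12. Of 17 Sox genes tested 4 were higher and 5 lower, beside 16.8% and 15.6% of all genes tested. The higher ones were Sox7, Sox17 and Sox18, which are factors of endothelium, and Sox1.

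Cell cycle genes were lower in control, with 14 of 30 called, none higher and a median log2 change of -0.60. Top2a, which untangles DNA at division, had 168 to 475 CPM in control and 187 to 1038 CPM in mutant libraries (-1.03 ± 0.25, adjusted p = 0.00342), and Mki67, the gene of the proliferation antigen Ki-67, changed by -1.36 ± 0.40 (adjusted p = 0.0117). Pcna, of the replication clamp, was at 139 to 238 CPM in control and 67.5 to 267 CPM in mutant libraries (0.07 ± 0.17, adjusted p = 0.781). The count of 14 was 8 without control 2, 28 without Notch1-/- replicate 2, and 8 without controls 1 and 3 together, an alternative chosen after the data were seen. Mki67, with a listed length of 10075 bases, was among the 52 long-transcript genes low in control 3. Sox6 and Tcf12, also lower in control, have listed lengths of 9362 and 5061 bases. The part of transcript length in the differences between control and mutant libraries was not tested.

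Of single genes outside the lists, Trnp1, a nuclear protein gene, had 31.3 to 49.7 CPM in control and 0.435 to 34.6 CPM in mutant libraries (3.17 ± 0.24, adjusted p = 1.73e-08, above the mutant median in 6 of 6 control libraries). Its mean was 25.4 CPM in Notch2-/- and at most 3.42 CPM in the other 3 mutant genotypes. Hfm1, of a meiotic DNA helicase, was lower in control, at 0.489 to 1.17 CPM against 0.769 to 18.0 CPM (-3.27 ± 0.42, adjusted p = 1.03e-05). Of the 28 interferon response genes 4 were higher in control and none was lower, a share near the 16.8% of all genes called higher and a count that was 2 without control 6, 7 without control 1, 9 without Notch1-/- replicate 2 or Notch1-/-Notch2-/- replicate 4, and 10 without Rbpj-/- replicate 4. Of 10 MHC genes 6 were higher and none was lower, with a median log2 change of 2.14, and the count was 1 with the 20 mutant libraries taken as 1 group. Here Notch2-/- was farthest from control. H2-Aa averaged 457 CPM in control, 204 CPM in Notch1-/- and 1.46 CPM in Notch2-/-, and B2m 3614, 1821 and 260 CPM. For Ciita, which was not called, Notch1-/- lay above control, at 33.5 against 14.8 CPM, and Notch2-/- at 0.394 CPM. Tgtp2 itself had 0.267 to 1378 CPM in control and 0.128 to 1869 CPM in mutant libraries (2.46 ± 1.25, adjusted p = 0.128).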

How the data were processed

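The deposited table holds whole-number counts per gene for 26 libraries with an Entrez identifier and a length, and the submitters' processing notes name STAR and mm10 for the authors' alignment. No version is recorded there. The counting tool, annotation, strand setting and unit of length are not given in the sources used, and length was read as bases. Counts of overlapping, antisense and near-identical genes are therefore uncertain. Libraries were TruSeq Stranded RNA LT, sequenced on a NextSeq 500, per the labels' protocols.

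Symbols, positions and promoters come from RefSeq tables of GRCm38.p6 (24374 of 24454 identifiers matched, and the rest held 0.476% of counts). CPM used totals scaled by TMM over the 6 controls, or over all 26 libraries where mutants are quoted. Spread is the SD of log2 CPM with a prior count of 2 in autosomal genes with a mean of at least 10 CPM. The contrast was fitted on all 26 libraries with genotype as the only term, after filterByExpr, with edgeR 4.0.16 (quasi-likelihood F-test, R 4.3.3), at a Benjamini-Hochberg adjusted p of 0.05. The mutant genotypes were weighted equally. The common biological coefficient of variation was 0.368. A gene is called higher or lower only where it passed.

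Genes were named by a rule: members of the lists by role and level, the 25 most and 25 least variable autosomal genes, the 20 highest per length and the 10 largest changes in each direction of the contrast. Which of these are described was decided with their values in view, and so was the choice of single genes that stood apart in 1 library, such as Hmga2 and Megf6. Members and lists were chosen with earlier results of these data known. Alternatives were other scalings, floors and prior counts, other filters, DESeq2 1.42.0, voom of limma 3.58.1, the replicate number as a block, the 20 mutant libraries as 1 group, and each library left out. The procedure was tested on simulated data. Some members of the lists are not reported by name here.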

Additional observations from a re-analysis of the deposited data

Results flagged for a closer look

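In 211 quantities (levels of named genes and summed levels of lists), the control library farthest from the others was set against the range of all 6 by Dixon's criterion. It was met in 19. Chance meets it in about 1 in 20 groups, but that rate is no yardstick here, since some genes were named because 1 library stood apart and list sums repeat their single genes. Control 4 was high in 7 of them: Vegfa at 352 CPM, Hmga2 at 52.8 CPM, Megf6 at 48.7 CPM, Cd109 at 9.42 CPM and Dlk1 at 6.00 CPM, and the sums of the PDGF and VEGF ligands at 430.2 CPM and of the hypoxia and glycolysis genes at 2381 CPM. Vegfa belongs to both of those lists. The same library was low in Fgfr2, at 36.9 CPM.

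Control 6 was high in Ttr at 294 CPM, Dcn at 383 CPM, Igf2 at 233 CPM, Ly6a at 273 CPM and Iigp1 at 1259 CPM. It was also high in the sum of the ependymal and choroid plexus genes at 302 CPM, nearly all of it Ttr, and in that of the IGF, HGF and neurotrophin genes at 245 CPM, nearly all of it Igf2. Control 1 was high in Fcrls, a microglial receptor gene, at 61.9 CPM, and in Igf1 at 1.40 CPM. Control 3 was high in Trp53 at 15.5 CPM and low in Tcf4 at 163 CPM.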

How the results depend on the processing

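Of the listed genes, 366 averaged at least 10 CPM in the control libraries, and 362 to 367 did so without 1 library. None of 1548 level values of named genes under other scalings or without libraries moved by an SD or more. Per-length levels rescaled to TPM were 1.37 higher on the log2 scale (1.25 to 1.55 by library), a shift that leaves ratios between genes in a library as they were.

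The count of 224 genes with an SD of at least 1 was 498 with a floor of 1 CPM and 132 with a floor of 30 CPM. Without 1 library it was 175 (control 1) to 266 (control 5). In alternatives chosen after the data were seen, it was 130 without controls 1 and 3 and 124 in genes of up to 4000 bases.

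The contrast called 5056 genes, 3550 (without control 2) to 5924 (without control 4) without 1 library, 7187 with voom and 3650 with a filter of 10 CPM in 4 libraries. It called 2797 without controls 1 and 6, and 2667 without controls 1 and 3, of which the second was chosen after the data were seen. With the replicate number as a block it called 4333. Over 47 pairs of libraries with the same number the correlation of deviations from genotype means was -0.42 to 0.63, and it exceeded 0.1 in 13. Its median was -0.04, beside -0.01 for pairs with different numbers, so the medians showed no pairing by number. Of 74 named genes with a call, 35 lost it in at least 1 alternative and none changed sign. The cause of these changes was not tested.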

Other observations

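Cholesterol biosynthesis genes, which glia need for membrane, were among the steadiest lists by summed level in the control libraries, with sums of 3480 to 4381 CPM over 18 genes. None of the 17 ranked members had an SD of at least 1, a share near the 2.26% of all ranked genes. Hmgcs1, an early enzyme of the pathway, lay at 923, 1004 and 1132 CPM as lowest, median and highest library, and Msmo1, a later one, at 268, 370.1 and 430.3 CPM. Cell cycle genes summed to 1972 CPM in control 2, 2259 and 2266 CPM in controls 3 and 5, and 3300.5 to 3611 CPM in controls 1, 4 and 6. Immediate early genes, which dissociation of tissue can induce, summed to 504 to 698 CPM over 23 genes. Of 13 ranked members 1 had an SD of at least 1, beside 2.26% of all ranked genes.

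Against the mutant genotypes, 4 immediate early genes were higher and 3 lower in control of 23 tested, beside 16.8% and 15.6% of all genes. Fos (-1.37) and Jun (-0.73) were lower and Atf3 (1.47) and Zfp36 (1.36) higher, all as log2 changes called by edgeR's quasi-likelihood test. Of 20 collagen and matrix genes 4 were lower and none was higher, but the direction of that count turned: 5 were higher and 2 lower with voom, 1 was higher and none lower with the replicate number as a block, and none was called in either direction without control 2. Tnc was 1 of the 4, and its call was lost without control 2, 3, 5 or 6.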
